A study of Homo sapiens with 6 samples.

Results

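The bone morphogenetic protein (BMP) genes described here are the ligand gene BMP4, the pseudoreceptor gene BAMBI, the homeobox genes MSX1 and MSX2, the basic helix-loop-helix gene HAND1 and the inhibitor-of-DNA-binding genes ID1, ID2, ID3 and ID4. They were followed through 3 lists of β-catenin peaks, by taking every peak whose assigned gene carries one of these 9 names, at any distance from its transcription start site (TSS). Of 3126 peaks in all, 9 were assigned to 6 of the 9 genes. In CHIR+SB there were 4 of 1813 peaks, in CHIR 5 of 1053, and in RPMI none of 260.

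The peaks come from chromatin immunoprecipitation and sequencing (ChIP-seq) of SA121 cells, an established line of human embryonic stem cells, with an antibody to β-catenin. Confluent cells spent 6 h in RPMI-1640 medium that held CHIR99021 and SB431542 (CHIR+SB), CHIR99021 alone (CHIR), or neither (RPMI, the mock treatment). Each condition had 1 β-catenin library and 1 goat IgG control library, 6 samples in all, and each library was made from the pooled DNA of parallel ChIPs. There was thus no replicate, and intervals below are 95% intervals that cover counting error between libraries only.

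BMP ligands bind serine/threonine kinase receptors that phosphorylate SMAD1, SMAD5 and SMAD9. These bind DNA together with SMAD4 and switch on targets such as the ID genes, MSX1 and MSX2. CHIR99021 inhibits the kinase GSK3 and so keeps β-catenin, the Wnt effector that is recruited to DNA by TCF/LEF factors, from being degraded. SB431542 blocks the type I receptors of activin, Nodal and TGFβ and is known to spare those of BMP. In human embryonic stem cells, BMP4 is used with Wnt signals to induce mesoderm, and alone it can drive the cells to a trophoblast-like or amnion-like fate. ChIP-seq does not measure expression, so neither the levels of these genes nor the markers of the cell type can be read from these lists.

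No sequence of the peaks themselves is shown, because coordinates in the peak lists are in hg19 and no genome of that build was used. Promoter windows of 3 genes are shown instead, for the gene whose peak lay nearest to its TSS (HAND1), for a gene with a peak in both inhibitor conditions (ID3) and for a gene with none (BAMBI). Each runs 5′ to 3′ along the gene from 250 bases before the start to 50 after it, from RefSeq in build GRCh38.p14. Capitals mark either the TCF/LEF core, CTTTG followed by A or T at each of the next 2 places, or the GC-rich element of BMP-activated SMADs, GGCGCC, on either strand. The windows are chr5:154478178-154478477 on the minus strand for HAND1, chr1:23559452-23559751 on the minus strand for ID3 and chr10:28677271-28677570 on the plus strand for BAMBI.
HAND1: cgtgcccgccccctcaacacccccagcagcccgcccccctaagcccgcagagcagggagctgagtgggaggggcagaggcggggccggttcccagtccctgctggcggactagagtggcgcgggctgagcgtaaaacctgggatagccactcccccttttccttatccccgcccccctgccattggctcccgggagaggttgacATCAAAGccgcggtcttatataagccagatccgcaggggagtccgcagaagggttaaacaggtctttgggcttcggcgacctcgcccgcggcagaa
ID3: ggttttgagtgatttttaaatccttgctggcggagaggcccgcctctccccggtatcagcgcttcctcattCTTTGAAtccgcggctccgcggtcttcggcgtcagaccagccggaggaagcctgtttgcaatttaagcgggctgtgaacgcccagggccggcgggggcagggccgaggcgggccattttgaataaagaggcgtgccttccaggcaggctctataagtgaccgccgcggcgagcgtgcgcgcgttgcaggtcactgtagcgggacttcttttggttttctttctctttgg
BAMBI: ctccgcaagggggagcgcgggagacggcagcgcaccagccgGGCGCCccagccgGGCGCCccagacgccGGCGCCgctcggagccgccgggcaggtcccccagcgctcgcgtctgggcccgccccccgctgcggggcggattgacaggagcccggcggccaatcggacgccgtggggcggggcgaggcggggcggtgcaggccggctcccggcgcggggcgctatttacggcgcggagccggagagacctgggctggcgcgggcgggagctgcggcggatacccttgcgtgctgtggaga

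All 9 genes had a window in the table, 11 windows in all, since BMP4 has 3 starts. The TCF/LEF core was found in 2 of the 11 windows, those of HAND1 and ID3, and in 13.8% of 35116 windows of the same length. In HAND1 it lies on the antisense strand and begins 46 bases before the start (ATCAAAG), and in ID3 it lies on the sense strand and begins 179 bases before the start (CTTTGAA). The element GGCGCC was also found in 2 of the 11 windows, 1 of BMP4 with 2 matches and that of BAMBI with 3, and in 19.2% of all windows. The 2 motifs do not overlap in any of these windows. No β-catenin peak assigned to the 9 genes reached into such a window by the distances in the lists: the nearest, at HAND1, had its near edge 0.525 kb upstream of the TSS.

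By gene, 4 of the 9 had a peak in CHIR+SB, 5 in CHIR and none in RPMI. In the same lists 6.25%, 3.80% and 1.14% of the 20056 protein-coding genes of the reference table had one. MSX1, MSX2 and ID3 had a peak in both CHIR+SB and CHIR, as had 2.65% of protein-coding genes. ID4 had one in CHIR+SB and not in CHIR, and BMP4 and HAND1 had one in CHIR and not in CHIR+SB. Of the 5 genes with a CHIR peak, 3 thus also had a CHIR+SB peak, where 69.7% of all protein-coding genes with a CHIR peak did. Of the 4 with a CHIR+SB peak, 3 also had a CHIR peak, where 42.3% of all did. ID1, ID2 and BAMBI had no peak in any list. The genes were chosen with earlier results of these data known, so these counts are a description.

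**Figure D1:**
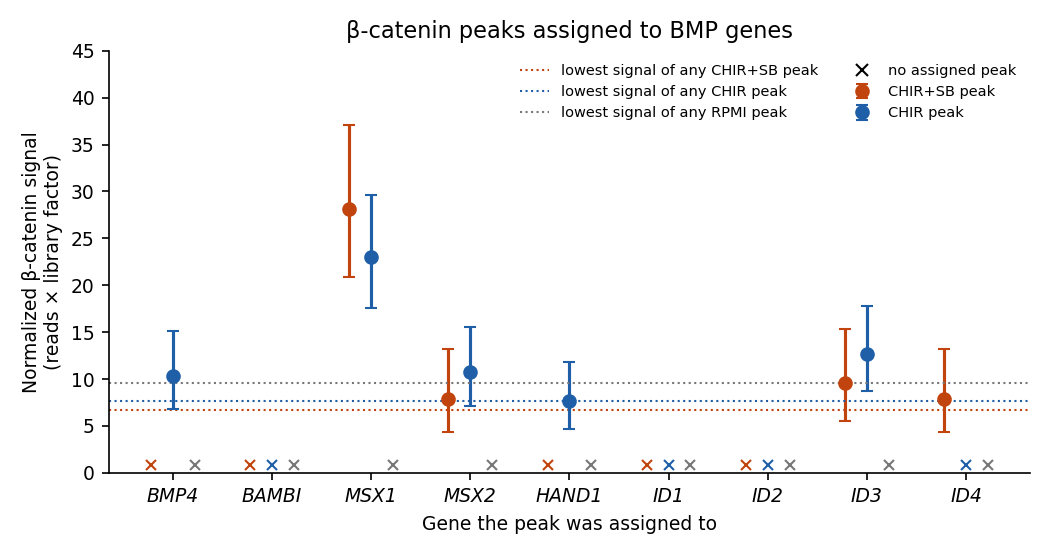
Normalized β-catenin signal (reads times the library factor) of each peak assigned to the 9 genes, in CHIR+SB (orange) and CHIR (blue), with exact 95% Poisson intervals; crosses mark genes with no assigned peak in a list (grey for RPMI) and dotted lines the lowest signal of any peak in each list. MSX1 stands highest, at 28.1 in CHIR+SB and 23.0 in CHIR, and the other peaks lie between 7.68 and 12.7.

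The ligand gene BMP4 had 1 peak, in CHIR, 26.0 kb upstream of its TSS (chromosome 14, 54449369 to 54449704). It held 27 β-catenin reads and 3 IgG reads, a normalized signal of 10.4 (6.83 to 15.1), and ranked 659 of 1053. Signal over IgG was 4.90 (1.51 to 25.2). No CHIR+SB peak overlapped it and none was assigned to BMP4 there. In the CHIR+SB library the same signal would amount to 18.4 reads, above the 12 reads of that list's lowest peak, and in the RPMI library to 16.2 reads, against a lowest peak of 15. The counts of these libraries at that position are not in the lists used here. A CHIR+SB peak on the other side of BMP4, 13.5 kb from its TSS and past the end of the gene, was assigned to the microRNA gene MIR5580.

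BAMBI encodes a transmembrane protein that resembles a BMP type I receptor without the kinase domain and damps BMP, activin and TGFβ signalling. It had no peak in any list.

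MSX1, a homeobox transcription factor of neural crest, limb and tooth, had the highest signal of the 9 genes in each of both inhibitor conditions. In CHIR+SB its peak (chromosome 4, 4858274 to 4859051) held 50 β-catenin reads and 15 IgG reads, with a signal of 28.1 (20.9 to 37.1), rank 55 of 1813. In CHIR the peak (chromosome 4, 4858277 to 4859029) held 60 β-catenin reads and 5 IgG reads, with a signal of 23.0 (17.6 to 29.7), rank 105 of 1053. Both peaks mark 1 site: the centres, 2.73 kb upstream of the TSS in CHIR+SB and 2.74 kb in CHIR, lay 9.50 bp apart, and the widths were 777 and 752 bp.

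Signal at MSX1 in CHIR+SB was 1.22 times that in CHIR, and the interval of 0.822 to 1.81 includes equality. Signal over IgG ran the other way, at 4.76 (2.63 to 9.13) in CHIR+SB and 6.53 (2.65 to 20.8) in CHIR, with overlapping intervals, as the IgG reads were 15 in CHIR+SB and 5 in CHIR. No RPMI peak overlapped the site. The CHIR signal would amount to 36.0 reads in the RPMI library, where the lowest peak had 15. Of 33 CHIR peaks within 2 reads of the MSX1 count, 16 overlapped an RPMI peak (48.5%), so a peak of this size with none in RPMI was not rare in the CHIR list.

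MSX2, the paralogue of MSX1, had a peak in CHIR+SB and another in CHIR, at separate places. The CHIR+SB peak lay 31.2 kb upstream of the TSS (chromosome 5, 174120344 to 174120456), with 14 β-catenin reads, 5 IgG reads and a signal of 7.88 (4.31 to 13.2). The CHIR peak lay 3.36 kb upstream (chromosome 5, 174148086 to 174148334), with 28 β-catenin reads, 6 IgG reads and a signal of 10.8 (7.14 to 15.5). The centres were 27.8 kb apart, and neither overlapped a peak of the other list. So the 2 lists name the same gene by different sites. Signal over IgG was 4.00 (1.36 to 14.2) at the CHIR+SB site and 2.54 (1.03 to 7.50) at the CHIR site, and the CHIR value was the lowest of the 9 peaks. The signal of the CHIR+SB site would amount to 20.5 reads in the CHIR library, whose lowest peak had 20 reads, so a site of equal signal would sit at the edge of that list. The signal of the CHIR site would amount to 19.1 reads in the CHIR+SB library, above that list's lowest peak of 12 reads.

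HAND1, a basic helix-loop-helix factor of extraembryonic and lateral mesoderm and of the heart, had 1 peak, in CHIR. It lay 0.577 kb upstream of the TSS (chromosome 5, 153858349 to 153858452) and was the single peak of the 9 within 1 kb of a TSS. Over the whole lists, 26.6% of CHIR peaks and 14.5% of CHIR+SB peaks lay within 1 kb. The HAND1 peak held 20 β-catenin reads, the fewest of any CHIR peak, as did 80 CHIR peaks in all, and 3 IgG reads. The signal was 7.68 (4.69 to 11.9) and signal over IgG 3.63 (1.08 to 19.1). At 103 bp it was also the narrowest of the 9. The same signal would amount to 13.7 reads in the CHIR+SB library, above its lowest peak of 12, and to 12.0 reads in the RPMI library, below its lowest peak of 15. Whether HAND1 differed between CHIR and RPMI was therefore not detectable from the lists.

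**Figure D2:**
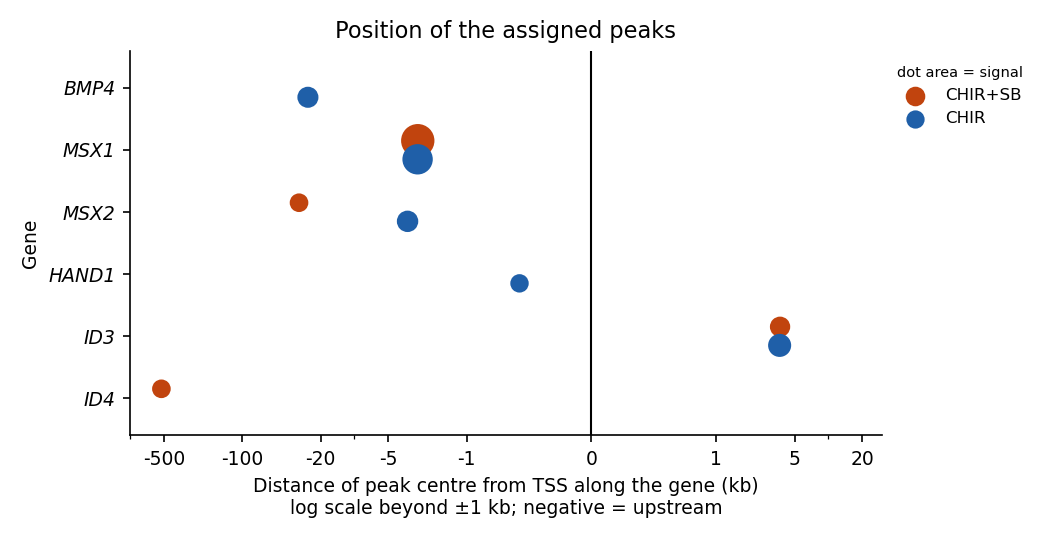
Distance of the centre of each assigned peak from the TSS of its gene, in kb along the gene (upstream negative, log scale beyond 1 kb), in CHIR+SB (orange) and CHIR (blue), with dot area proportional to normalized signal. For MSX1 and ID3 the dots of both conditions stand at almost the same distance, the MSX2 dots lie 27.8 kb apart, and the ID4 dot lies 525 kb upstream.

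The ID genes encode helix-loop-helix proteins without a DNA-binding region, which hold E-proteins and so keep basic helix-loop-helix factors such as HAND1 from pairing with them. They are among the most direct BMP-SMAD targets known. ID3 alone had a peak in both inhibitor conditions, at 1 site past the end of the gene. In CHIR+SB (chromosome 1, 23882492 to 23882651) it held 17 β-catenin reads and 8 IgG reads, with a signal of 9.56 (5.57 to 15.3) and rank 875 of 1813. In CHIR (chromosome 1, 23882405 to 23882802) it held 33 β-catenin reads and 5 IgG reads, with a signal of 12.7 (8.72 to 17.8) and rank 455 of 1053.

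The centres at ID3 were 3.71 kb from the TSS in CHIR+SB and 3.68 kb in CHIR, 1.85 and 1.82 kb from the end of the gene, and 32.0 bp apart. Signal in CHIR+SB was 0.755 times that in CHIR (0.394 to 1.39), an interval that includes equality. In width the CHIR+SB peak was 0.401 times its CHIR partner, at 159 bp against 397 bp in CHIR, and per kb of peak the ratio turned to 1.88. The direction at ID3 thus depends on the width that is counted. Signal over IgG was 3.04 (1.24 to 8.13) in CHIR+SB and 3.59 (1.39 to 11.8) in CHIR.

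ID4 had 1 peak, in CHIR+SB, 525 kb upstream of its TSS (chromosome 6, 19312706 to 19312868). It held 14 β-catenin reads and 3 IgG reads, a signal of 7.88 (4.31 to 13.2), the same count as the MSX2 peak of that list and as 433 CHIR+SB peaks in all. Signal over IgG was 6.67 (1.86 to 36.2). The signal of this peak would amount to 20.5 reads in the CHIR library, whose lowest peak had 20. In the RPMI library it would amount to 12.3 reads, below the lowest peak of 15. A site of equal signal would thus sit at the edge of the CHIR list and below the RPMI list. Of the CHIR+SB peaks 7.39% lay more than 500 kb from the TSS of their assigned gene (134 of 1813), and at that distance the name says only which gene the authors assigned. ID1 and ID2 had no peak in any list. For these 2 genes and BAMBI the lists give no TSS, so peaks near them under another gene's name were not looked for.

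**Figure D3:**
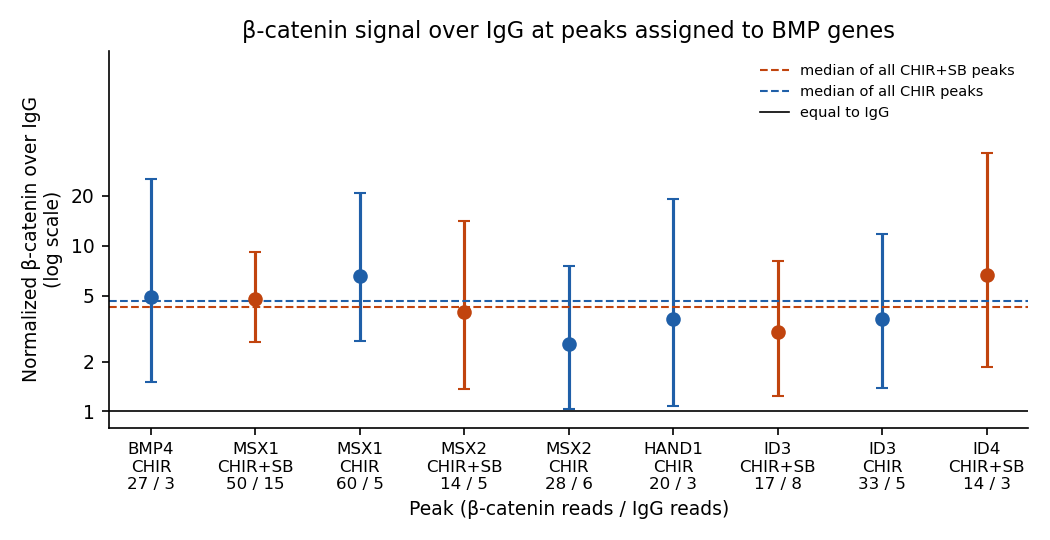
Normalized β-catenin signal over normalized IgG signal (log axis) at the 9 peaks, with exact 95% intervals and the β-catenin and IgG read counts under each peak; dashed lines are the medians over all peaks of the CHIR+SB (orange) and CHIR (blue) lists. All 9 intervals lie above 1, the lowest, for MSX2 in CHIR, from 1.03, and all 9 include both medians. Only regions already called as peaks are in the lists, so this is a description.

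At all 9 peaks the interval of signal over IgG lay above 1. The lists hold only regions already called as peaks, so this is a description and no separate test of the sites. Over the 4 CHIR+SB peaks the median signal over IgG was 4.38, against 4.29 over all peaks of that list, and over the 5 CHIR peaks it was 3.63, against 4.66 over all CHIR peaks. IgG counts were low, 3 to 15 reads in CHIR+SB and 3 to 6 in CHIR, which makes the upper bounds wide. The signals themselves were ordinary for their lists apart from MSX1. The median signal of the 4 CHIR+SB peaks was 8.72, against 9.56 over the whole list, and that of the 5 CHIR peaks 10.8, against 11.9.

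None of the peaks lay within the body of its assigned gene. By the listed TSS and end, each of these genes spans less than 10 kb, which leaves little room for a peak within. The shares over the whole lists were not matched for gene length. In CHIR+SB 3 of 4 were upstream, 1 was downstream and none was within the gene, where the whole list had 38.5% upstream, 27.9% downstream and 33.6% within. In CHIR 4 of 5 were upstream, 1 was downstream and none within, against 42.9%, 23.9% and 33.1% over the list. With 4 and 5 peaks, of which MSX1 and ID3 count in both lists, these are descriptions.

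By site, 2 of the 5 CHIR peaks, those at MSX1 and ID3, overlapped a CHIR+SB peak by at least 1 bp, where 63.3% of all CHIR peaks did. Read from the other list, 2 of 4 peaks in CHIR+SB had a CHIR partner, where 36.6% of that list did. No peak of the 9 overlapped an RPMI peak, where 8.77% of all CHIR+SB peaks and 17.0% of all CHIR peaks did.

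The share of peaks that overlap the other list differed with read count around the counts of the 9 peaks. Among CHIR peaks within 2 reads of the peak in question, 93.9% of 33 overlapped a CHIR+SB peak at the count of MSX1 and 69.7% of 142 at the count of ID3, and these 2 peaks overlapped one. It was 50.8% of 191 at the count of MSX2, 49.0% of 202 at that of BMP4 and 27.1% of 177 at that of HAND1, and these 3 did not. In the CHIR+SB list, 95.5% of 22 had a CHIR partner at the count of MSX1, 20.1% of 680 at that of ID3 and 9.54% of 818 at the 14 reads of MSX2 and ID4. The ID3 peak of CHIR+SB overlapped a CHIR peak at a count where most did not.

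**Figure D4:**
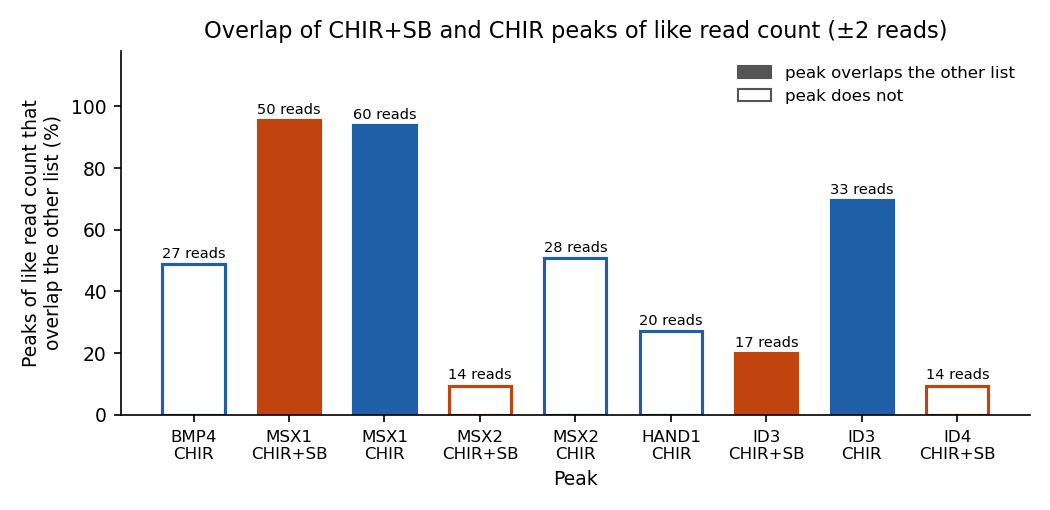
For each of the 9 peaks, the share (%) of peaks in its own list within 2 reads of its count that overlap a peak of the other inhibitor list; filled bars are peaks that themselves overlap the other list and open bars peaks that do not (CHIR+SB orange, CHIR blue). The filled CHIR bars, MSX1 and ID3, are the highest of the CHIR bars, at 93.9 and 69.7%.

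Signal could be set side by side at the 642 pairs of peaks that overlapped one-to-one in CHIR+SB and CHIR. Past 1.5-fold in either direction lay 20.6% of the pairs, 11.7% higher and 8.88% lower in CHIR+SB. Neither MSX1 nor ID3 was past it. By ratio they ranked 173 and 530 from the highest of 642, and the median ratio of all pairs was 1.00. The 3 genes closest to MSX1, among 490 other genes with a peak in both CHIR+SB and CHIR and none in RPMI, were NODAL, MYOF and LOC255130, by Euclidean distance of the log2 of their highest signals over 2 libraries. NODAL, the ligand gene of the pathway that SB431542 blocks, had a signal of 28.7 in CHIR+SB and 23.8 in CHIR, a distance of 0.06 (log2). The distances of MYOF and LOC255130 were 0.10 and 0.12. With 2 libraries this says only that the signals were alike in size.

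**Figure D5:**
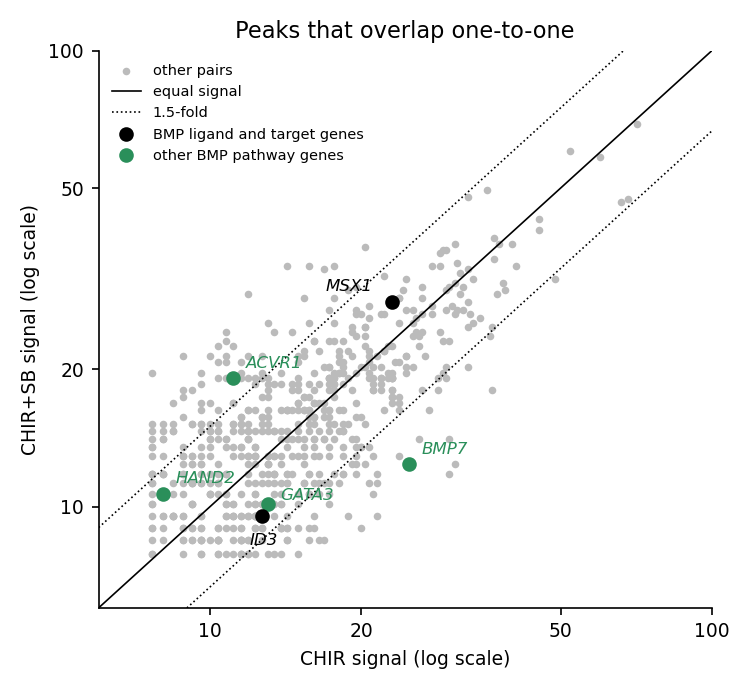
Normalized β-catenin signal in CHIR+SB against CHIR at the 642 peaks that overlap one-to-one (log axes), with equal signal (solid) and 1.5-fold (dotted) lines; black dots are the MSX1 and ID3 peaks and green dots peaks of other BMP pathway genes. MSX1 and ID3 lie within the 1.5-fold lines, BMP7 lies below them and ACVR1 above.

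Beyond the 9, a list of 53 further genes of BMP signalling was followed. In CHIR+SB 6 of them had a peak, in CHIR 5, and in RPMI none (11.3%, 9.43% and 0%, where 6.25%, 3.80% and 1.14% of protein-coding genes had one). The genes with a CHIR peak all had a CHIR+SB peak too, where 69.7% of all protein-coding genes with a CHIR peak did. At TBX3 the peaks of the CHIR+SB and CHIR lists lay at separate sites. Of 12 ligands BMP7 alone had a peak, and of 7 receptors ACVR1 alone. None of the 4 SMAD transducers, the 6 intracellular inhibitors such as SMAD6, SMAD7 and SMURF1, or the 12 extracellular antagonists such as NOG and GREM1 had a peak in any list. Of 12 further targets 4 had a peak in CHIR+SB (GATA3, TBX3, HAND2 and ISL1) and 3 in CHIR (the same genes without ISL1). The other 47 genes had no peak.

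BMP7, a ligand that pairs with BMP4, had a peak 341 kb downstream of its TSS (chromosome 20, from 55500209 to 55500627 in CHIR+SB). It held 22 β-catenin and 9 IgG reads in CHIR+SB, and 65 β-catenin and 8 IgG reads in CHIR, with signals of 12.4 in CHIR+SB and 25.0 in CHIR. The ratio of 0.496 (0.291 to 0.815) ranked 636 of 642. The interval excludes equality, but it covers counting error only and is not corrected for the 642 pairs. Other pairs excluded it too, in both directions, such as that at LETM1 (0.231 to 0.645) and 1 at LDB2 (1.55 to 3.97). The share of all pairs that did so is not given here. Of all pairs, 8.88% were lower in CHIR+SB by more than 1.5-fold. The width in CHIR+SB was 0.627 times that in CHIR, and per kb the ratio was 0.791. Signal over IgG was 3.49 (1.55 to 8.62) in CHIR+SB and 4.42 (2.12 to 10.7) in CHIR, with overlapping intervals and a ratio of 0.790. At that distance the site is tied to BMP7 by the assigned name alone.

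ACVR1, a BMP type I receptor, had a peak 57.0 kb upstream in CHIR+SB and 57.2 kb in CHIR, with 34 β-catenin and 15 IgG reads in CHIR+SB, and 29 β-catenin reads and 1 IgG read in CHIR. The signals were 19.1 in CHIR+SB and 11.1 in CHIR, a ratio of 1.72 (1.02 to 2.92), over a CHIR+SB peak 1.99 times as wide. The interval excludes equality, with the same limits as at BMP7. Of all pairs, 11.7% were higher in CHIR+SB by more than 1.5-fold. Per kb the ACVR1 ratio turned to 0.862. Over IgG the order turned too, at 3.24 (1.72 to 6.40) in CHIR+SB and 15.8 (2.62 to 645) in CHIR, where the IgG library had 1 read. A second ACVR1 peak, 190 kb downstream, was in CHIR+SB alone, with 28 β-catenin and 10 IgG reads.

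Among the further targets, HAND2, the paralogue of HAND1, had a site 7.71 kb (CHIR+SB) and 7.85 kb (CHIR) downstream of its TSS, with 19 reads in CHIR+SB and 21 in CHIR and a signal ratio of 1.33 (0.674 to 2.59). Over a CHIR+SB peak 1.49 times as wide, the ratio per kb turned to 0.888. HAND2 had a second peak, 15.5 kb downstream, in CHIR+SB, with 18 reads. GATA3, a trophoblast and surface ectoderm factor, was assigned a site 1043 kb away, with 18 reads in CHIR+SB and 34 in CHIR and a ratio of 0.776 (0.412 to 1.41). Over IgG, with 2 IgG reads in each library, the order at GATA3 turned, at 12.9 (3.08 to 114) in CHIR+SB and 9.25 (2.37 to 79.5) in CHIR. TBX3, a T-box repressor of limb and heart development, had separate sites, 44.9 kb from its TSS in CHIR+SB (22 reads) and 4.39 kb within the gene in CHIR (24 reads). ISL1, a LIM-homeobox factor of heart progenitors and motor neurons, had peaks in CHIR+SB 11.8 and 530 kb downstream, with 20 and 14 reads.

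Across the series, the CHIR+SB, CHIR and RPMI lists held 39022, 39408 and 6272 β-catenin reads within peaks. The lowest peak had 12, 20 and 15 reads, a signal of 6.75, 7.68 and 9.61, so the lists were not called to the same depth. Of the CHIR peaks of the 9 genes, 4 of 5 lay above the highest of these minima, 9.61, and of the CHIR+SB peaks 1 of 4, that of MSX1. ID3 in CHIR+SB, at 9.56, lay just under it. The lists as a whole differed likewise: the median signal of all CHIR+SB peaks, 9.56, was under 9.61, and that of all CHIR peaks, 11.9, was above. These counts are therefore no trait of the 9 genes. Every difference in presence between conditions rests on 1 library each and was not tested.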

How the data were processed

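ChIP-seq peak lists of the 3 β-catenin libraries were used, and the 3 IgG libraries through the counts beside each peak. Bowtie was the aligner, with hg19 and mm9 as builds, per the submitters' processing notes; gene positions in the lists are those of hg19. For the peak caller, its thresholds and the library totals, the sources used here give nothing. Per the file headers, the authors deposited whole read counts per peak, a normalized signal (the count times 1 factor per library) and the ratio of β-catenin to IgG, with decimal commas, which were read as points. The score columns that the authors deposited, named for the IgG libraries, were not used. The gene and distance of each peak are the authors'.

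Coordinates are printed as deposited. Factors were 0.563, 0.384 and 0.641 for β-catenin in CHIR+SB, CHIR and RPMI. Signals carry exact Poisson intervals and ratios exact conditional binomial intervals, computed with Python 3.11.15 and SciPy 1.17.1. Of these, only the intervals of the CHIR+SB over CHIR ratio were tested on simulated counts. Peaks overlapped when they shared 1 bp. Gene names were matched to RefSeq (GRCh38.p14, names and promoters only) for 99.4, 99.3 and 100% of peaks. The genes of interest, the list of 53 pathway genes and the alternatives were chosen with earlier results of these data known. Named are all 9 genes, the pathway genes with a peak, and the 3 genes closest to the member with the highest CHIR signal. Doses are not given because the labels' unit for them was uncertain.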

Additional observations from a re-analysis of the deposited data

Results flagged for a closer look

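Within 50 kb of the TSS of the 6 genes with a peak, 2 peaks were assigned to another gene and so entered no count above. In CHIR+SB a peak of 26 β-catenin reads and 7 IgG reads (chromosome 14, 54409777 to 54410273) lay 13.5 kb from the BMP4 TSS, 6.18 kb past the end of the gene, and was assigned to MIR5580. Its signal was 14.6 and its signal over IgG 5.31 (2.24 to 14.5). It overlapped no CHIR or RPMI peak. The same signal would amount to 38.1 reads in the CHIR library, where the lowest peak had 20. Near its count, 49.6% of CHIR+SB peaks within 2 reads of 22 and 76.1% of those within 2 reads of 28 overlapped a CHIR peak. BMP4 was thus flanked by this CHIR+SB peak and, on its other side, by a CHIR peak 26.0 kb from its TSS. The centres of these 2 peaks were 39.5 kb apart. In CHIR a peak of 23 β-catenin reads and 2 IgG reads (chromosome 1, 23925002 to 23925228) lay 38.8 kb upstream of the ID3 TSS and was assigned to MDS2. Its signal was 8.83 and its signal over IgG 6.26 (1.55 to 54.8), and it overlapped no CHIR+SB or RPMI peak. Each was seen in 1 library, and no difference between conditions was tested.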

How the results depend on the processing

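The number of the 9 genes with a CHIR peak was 5 within 50 kb of the TSS, and 4 both within 10 kb and at the common signal minimum of 9.61. With the 260 highest peaks of each list, the length of the RPMI list, it was 1, MSX1. In CHIR+SB the number was 3 within 50 kb, 2 within 10 kb (ID3 and MSX1), 1 at the common minimum and 1 with the 260 highest peaks (MSX1 in each case). In RPMI it was 0 in every setting. Over the whole lists, 47.9% of CHIR+SB peaks and 34.3% of CHIR peaks lay beyond 50 kb. The 260 highest peaks were taken from 1813 in CHIR+SB and 1053 in CHIR. The median signal of all peaks was 9.56 in CHIR+SB, under the common minimum, and 11.9 in CHIR, above it. Shares of all genes and of all overlaps under these settings are not given here, so the counts are a description. Genes with a peak in both CHIR+SB and CHIR numbered 1 at the common minimum and 1 with the 260 highest peaks. CHIR peaks of these genes that overlapped a CHIR+SB peak numbered 1 of 4 at the common minimum, where ID3 in CHIR+SB drops out, and 2 of 5 with overlap over 50% of the shorter peak or with centres within 1 kb. The CHIR+SB over CHIR ratio at MSX1 turned to 0.729 over IgG, where the median of all pairs moved to 0.869. That at ID3 turned to 1.88 per kb of peak width, where the median of all pairs was 1.01. The direction at both thus depends on the measure. With reads scaled to all reads within peaks, MSX1 stood at 0.842 and ID3 at 0.520, where the median of all pairs moved to 0.689. Adding 1 read to each IgG count, an alternative chosen after seeing the data, left signal over IgG within its interval at all 9 peaks. At IgG counts of 3 to 15 reads in CHIR+SB and 3 to 6 in CHIR, 1 read could hardly move it out of such wide intervals. The result therefore says little about robustness. No paired analysis was possible because each group had 1 library, and for the same reason none could be left out.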
